A study of Mus musculus with 12 samples.

Results

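A set of 10 genes of the NRF2 pathway was followed through 12 RNA-seq libraries of mouse macrophages: the regulators Nfe2l2 and Keap1, and 8 genes of antioxidant defence, Slc7a11, Gclc, Gclm, Gsr, Txnrd1, Prdx1, Srxn1 and Nqo1. They were taken by symbol from a deposited table of 55401 genes, and all 10 of 10 were present and among the 12620 genes with enough counts to be tested. The cells were bone marrow derived macrophages, which grow out of marrow in the presence of M-CSF, the macrophage growth factor, and were harvested on day 7. All donors had a C57BL6 background, with 6 libraries from young mice (8 weeks) and 6 from old mice (12 months). No allele or nanoparticle treatment was labelled for these libraries, and the sources used here do not give the sex of the mice. The labels call the libraries biological replicates but do not say that each came from its own mouse, so the p-values reflect the spread among libraries, which may be partly technical.

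NRF2, the protein of Nfe2l2, is a transcription factor that KEAP1 binds and hands to a ubiquitin ligase for destruction. Oxidants and electrophiles modify cysteines of KEAP1, NRF2 then builds up, pairs with small MAF proteins and binds antioxidant response elements, short DNA motifs near its target genes. Its targets include the glutathione arm (import of cystine, synthesis and recycling of glutathione) and the thioredoxin arm (reduction of thioredoxin and repair of peroxiredoxin). In macrophages these arms buffer the oxidants that the NADPH oxidase makes. Because NRF2 is controlled largely through protein stability, the level of Nfe2l2 mRNA measured here is not a level of NRF2 protein.

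The promoters of Gclm, Prdx1 and Srxn1 are shown as examples from the genes that varied together across libraries, as described further on. Each printed window holds a match to a motif named below. Nqo1 and Gclc also varied with each of these genes, but the Nqo1 window held no match and no promoter of Gclc was available. A link between the motifs and varying together was not tested. Sequences are from RefSeq (GRCm38.p6), read 5′ to 3′ on the gene's strand, and cover the 250 bases before the transcription start. Capitals mark matches, on either strand, to TGACNNNGC, the core of the antioxidant response element, or to TGANTCA, the related TPA response element that AP-1 factors bind; the 2 motifs can overlap. The Gclm window is chr3:122245307-122245556, that of Prdx1 is chr4:116685349-116685598 and that of Srxn1 is chr2:152105274-152105523, all on the plus strand.
Gclm: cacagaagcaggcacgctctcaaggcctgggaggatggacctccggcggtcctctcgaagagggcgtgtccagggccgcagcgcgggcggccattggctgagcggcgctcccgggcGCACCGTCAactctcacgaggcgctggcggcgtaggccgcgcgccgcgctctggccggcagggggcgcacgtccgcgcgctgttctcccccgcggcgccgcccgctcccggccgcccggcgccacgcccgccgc
Prdx1: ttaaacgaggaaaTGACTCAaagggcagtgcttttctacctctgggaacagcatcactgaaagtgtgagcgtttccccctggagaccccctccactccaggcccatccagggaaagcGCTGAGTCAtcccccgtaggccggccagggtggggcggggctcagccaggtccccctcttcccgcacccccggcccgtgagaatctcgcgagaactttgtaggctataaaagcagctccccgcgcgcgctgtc
Srxn1: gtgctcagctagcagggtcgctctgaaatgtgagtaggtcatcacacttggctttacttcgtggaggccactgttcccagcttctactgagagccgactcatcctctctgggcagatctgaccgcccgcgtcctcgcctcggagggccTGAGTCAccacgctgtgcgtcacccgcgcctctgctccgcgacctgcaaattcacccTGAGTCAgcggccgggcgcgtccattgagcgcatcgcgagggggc

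In Gclm the capitals mark 1 antioxidant response element core that begins at position -134, counted from the start. In Prdx1 they mark a TPA element core at position -237 and, at position -133, an antioxidant response element core that overlaps a second TPA element core. Srxn1 shows TPA element cores at positions -102 and -45, and its antioxidant response element core lies after the start, at position 29, outside the printed window. Promoters running from 250 bases before to 50 bases after the start were searched for 8 of the 10 genes, those the RefSeq table held (all except Gclc and Gsr). The antioxidant response element core was found in 5 of these 8, Nfe2l2, Gclm, Txnrd1 (in 1 of its 3 promoters), Srxn1 and Prdx1, which is 5 of their 10 promoters, against 12.4% of all 32851 promoters in the table. The TPA element core was found in 2 of the 10 promoters, those of Srxn1 and Prdx1, against 7.81% of all promoters. A match is a description of letters and not a bound site, and the windows of Keap1, Nqo1 and Slc7a11 held neither core.

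The libraries held 22.2 to 25.2 M assigned counts in the young group and 19.3 to 22.4 M in the old group, where 1 M is 1000000. Levels are given as CPM (counts per 1000000 counts) scaled with TMM factors, and levels of different genes are compared only as CPM per kb of exon. All 8 macrophage markers listed (Adgre1, Csf1r, Itgam, Cd68, Lyz2, Mertk, Cd14 and Fcgr1) were tested, with a summed level of 28373 to 44493 CPM in young and 33972 to 42783 CPM in old libraries. None of the stromal (6), B and T cell (6) and erythroid (5) markers passed the filter on low counts, and their summed levels reached at most 1.37, 10.9 and 0.464 CPM. The 10.9 CPM of B and T cell markers was old replicate 6, and the 11 other libraries held at most 0.437 CPM. Of dendritic cell markers 3 of 6 were tested, with a sum of 9.25 CPM in old replicate 6 and at most 4.52 CPM in the others, and of osteoclast markers 4 of 6, with a sum of 31.2 CPM in old replicate 6 and at most 25.6 CPM in the others. In bulk samples, fewer cells of a type and less RNA per cell cannot be told apart.

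Per kb of exon, the peroxidase gene Prdx1 was the highest of the 10 genes, at a mean of 440 CPM per kb over 12 libraries, and Nfe2l2 followed at 110 CPM per kb. Srxn1 came next, at 29.7 CPM per kb. These first levels kept their order in all 12 libraries, and their ranges did not overlap. Txnrd1, Gsr and Keap1 lay at 14.4, 14.3 and 14.2 CPM per kb and could not be ranked: Txnrd1 exceeded Gsr in 6 of 12 libraries. Gclm (9.27 CPM per kb) was above Gclc (7.76 CPM per kb) in 8 of 12 libraries. Nqo1, at 2.96 CPM per kb, and Slc7a11, at 0.289 CPM per kb, closed the order in all 12 libraries, though their ranges over libraries overlapped. Slc7a11 was thus present at a very low level, with 44 to 248 counts per library, and Nqo1 reached as few as 16 counts in old replicate 1. Before division by exon length, the means of Nqo1 and Slc7a11 were close, at 4.59 and 4.03 CPM. Their order per kb therefore rests on the exon lengths used, 1553 and 13922 bases.

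The first comparison was between age groups. None of the 10 genes differed at an edgeR adjusted p of 0.05 (quasi-likelihood test, adjusted over all 12620 genes), a level that 2 genes reached (0.0158%). At an unadjusted p below 0.05 the count was again 0 of 10, against 5.47% of all genes, and for none of the 10 did the groups fail to overlap, against 0.206% of all genes. The count at an unadjusted p below 0.05 moved with single libraries: without young replicate 6 it was 3 of 10 (Gclc, Gsr and Txnrd1, all higher in old libraries), against 5.8% of all genes, and it was 1 of 10 (Slc7a11) without young replicate 3 (against 7.79%) or old replicate 2 (against 12.7%). Log2 fold changes, old minus young, were positive for 7 and negative for 3, with a median of 0.08, while the median over all genes was -0.01 and 47.5% were positive. A p that misses the threshold does not show equal levels, so intervals are given for each gene.

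**Figure D1:**
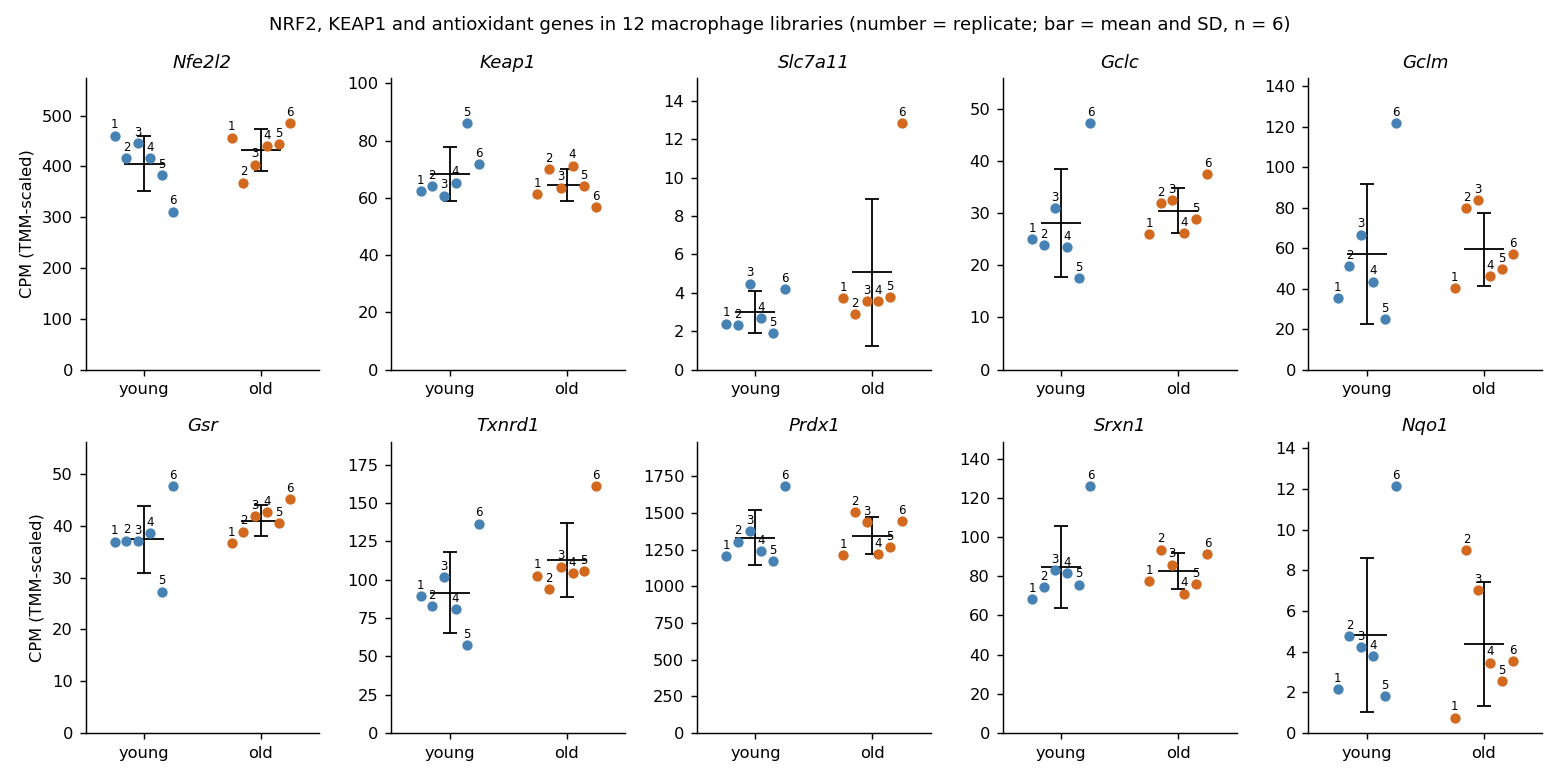
Level of each gene (y axis, TMM-scaled CPM from 0) in the 6 young (blue) and 6 old (orange) libraries; numbers are replicate numbers, and bars are the mean and SD. Young and old libraries overlap for all 10 genes, and young replicate 6 is the highest young library for 7 of the 8 antioxidant genes.

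Nfe2l2 (ENSMUSG00000015839, chr2:75675513-75704641, minus strand, GRCm38) had a lowest, median and highest level of 311, 416 and 461 CPM in young libraries and 368, 442 and 486 CPM in old ones. The groups overlapped, and the lowest library of each was young replicate 6 and old replicate 2. The means were 405 ± 53.6 and 433 ± 41.5 CPM (SD, n = 6 each), and the log2 fold change was 0.10 (SE 0.10, 95% interval -0.11 to 0.30, edgeR adjusted p = 0.82).

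Keap1 (ENSMUSG00000003308, chr9:21229730-21239361, minus strand), the adaptor that holds NRF2 down, was at 60.8, 64.7 and 86.2 CPM in young libraries and 56.6, 63.8 and 71.2 CPM in old ones (lowest, median, highest). Its highest library was young replicate 5. The log2 fold change was -0.09 (SE 0.09, 95% interval -0.28 to 0.11, edgeR adjusted p = 0.83). Of its exon bases 10.9% overlap Gm16754 on the other strand, and the counting ignored strand. Reads on those bases could not be told apart by strand, so the level of Keap1 is uncertain. Per kb, Nfe2l2 exceeded Keap1 by a ratio of 7.50 ± 1.69 in young and 8.40 ± 1.41 in old libraries (SD, n = 6 each). This ratio was lowest in young replicate 6 (5.35) and young replicate 5 (5.49), and highest in old replicate 6 (10.6).

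In the glutathione arm, Slc7a11 (ENSMUSG00000027737, chr3:49892526-50443614, minus strand) encodes the cystine importer subunit xCT, which brings in the cystine from which cysteine for glutathione is made. Its lowest, median and highest levels were 1.90, 2.55 and 4.47 CPM in young and 2.88, 3.65 and 12.8 CPM in old libraries. Old replicate 6 stood far above the other old libraries, of which the next reached 3.79 CPM, and these lay within the range of the young libraries. The means were 3.00 ± 1.07 and 5.06 ± 3.83 CPM (SD, n = 6 each), with a log2 fold change of 0.75 (SE 0.38, 95% interval -0.06 to 1.56, edgeR adjusted p = 0.77). Without old replicate 6 the log2 fold change was 0.23.

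Glutamate-cysteine ligase joins glutamate and cysteine in the rate-limiting step of glutathione synthesis, and is made of a catalytic subunit (Gclc) and a modifier subunit (Gclm). Gclc (ENSMUSG00000032350, chr9:77754535-77794485, plus strand) was at 17.5, 24.4 and 47.3 CPM in young and 26.0, 30.4 and 37.4 CPM in old libraries (lowest, median, highest). Of the young libraries 4 lay below every old one (replicates 1, 2, 4 and 5), replicate 3 lay within the old range and replicate 6 above it. Its log2 fold change was 0.12 (SE 0.20, 95% interval -0.31 to 0.55, edgeR adjusted p = 0.89). It was 0.33 without young replicate 6 and 0.017 without young replicate 5.

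Gclm (ENSMUSG00000028124, chr3:122245557-122270732, plus strand) ranged further, at 24.8, 47.3 and 122 CPM in young and 40.4, 53.2 and 83.8 CPM in old libraries. Again young replicates 5 and 6 were the lowest and the highest of all 12, and old replicates 2 and 3 led the old group. The log2 fold change was 0.05 (SE 0.35, 95% interval -0.71 to 0.82, edgeR adjusted p = 0.97), and 4.71% of its exon bases are shared with Gm17494 and Gm6061. The modifier to catalytic subunit ratio per kb was 1.15 ± 0.275 in young and 1.16 ± 0.284 in old libraries (SD, n = 6 each). It reached 1.54 (young replicate 6), 1.49 (old replicate 2) and 1.55 (old replicate 3), so that in those libraries Gclm stood further above its partner.

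Gsr (ENSMUSG00000031584, chr8:33652523-33698163, plus strand), the reductase that returns oxidised glutathione to its reduced form with NADPH, varied little. Its lowest, median and highest levels were 27.3, 37.1 and 47.7 CPM in young and 36.7, 41.3 and 45.2 CPM in old libraries. In the young group 4 libraries lay close together at 37.0 to 38.6 CPM, with replicate 5 below and replicate 6 above. The log2 fold change was 0.13 (SE 0.11, 95% interval -0.10 to 0.36, edgeR adjusted p = 0.79).

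In the thioredoxin arm, Txnrd1 (ENSMUSG00000020250, chr10:82833951-82897712, plus strand) encodes the cytosolic selenoenzyme that reduces thioredoxin. It was at 57.4, 86.1 and 137 CPM in young and 94.0, 105 and 161 CPM in old libraries (lowest, median, highest). The extremes of the young group were replicates 5 and 6, while in the old group replicate 6 stood apart from the other libraries, which reached 108 CPM. The means were 91.4 ± 26.4 and 113 ± 24.1 CPM (SD, n = 6 each), and the log2 fold change was 0.30 (SE 0.18, 95% interval -0.09 to 0.70, edgeR adjusted p = 0.77). Without old replicate 6 it was 0.17, and without young replicate 6 it was 0.45.

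Prdx1 (ENSMUSG00000028691, chr4:116685544-116700822, plus strand) encodes a peroxiredoxin that reduces hydrogen peroxide with electrons from thioredoxin. Its levels of 1172, 1274 and 1683 CPM in young and 1212, 1352 and 1504 CPM in old libraries (lowest, median, highest) spanned only 1.44-fold over all 12. The log2 fold change was 0.02 (SE 0.10, 95% interval -0.19 to 0.22, edgeR adjusted p = 0.97). Srxn1 (ENSMUSG00000032802, chr2:152105516-152111376, plus strand), the sulfiredoxin that repairs overoxidised peroxiredoxins, was at 68.2, 78.6 and 126 CPM in young and 71.1, 81.7 and 93.5 CPM in old libraries. Young replicate 6 stood above all others, and the other young libraries lay within or just below the old range. Its log2 fold change was -0.04 (SE 0.13, 95% interval -0.32 to 0.25, edgeR adjusted p = 0.95). Srxn1 per kb was 0.0681 ± 0.00741 of Prdx1 in young and 0.0661 ± 0.00243 of it in old libraries (SD, n = 6 each).

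Nqo1 (ENSMUSG00000003849, chr8:107388225-107403206, minus strand), a quinone reductase often used as a marker of NRF2 activity, had a wide range for a low level. It was at 1.82, 3.99 and 12.1 CPM in young and 0.747, 3.49 and 8.98 CPM in old libraries (lowest, median, highest), a 16.2-fold span over the 12. Young replicate 6, old replicate 2 and old replicate 3 (7.02 CPM) were the highest, and old replicate 1 was the lowest. The log2 fold change was -0.14 (SE 0.56, 95% interval -1.36 to 1.08, edgeR adjusted p = 0.96), so a change of more than 2-fold in either direction lay within its interval.

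**Figure D2:**
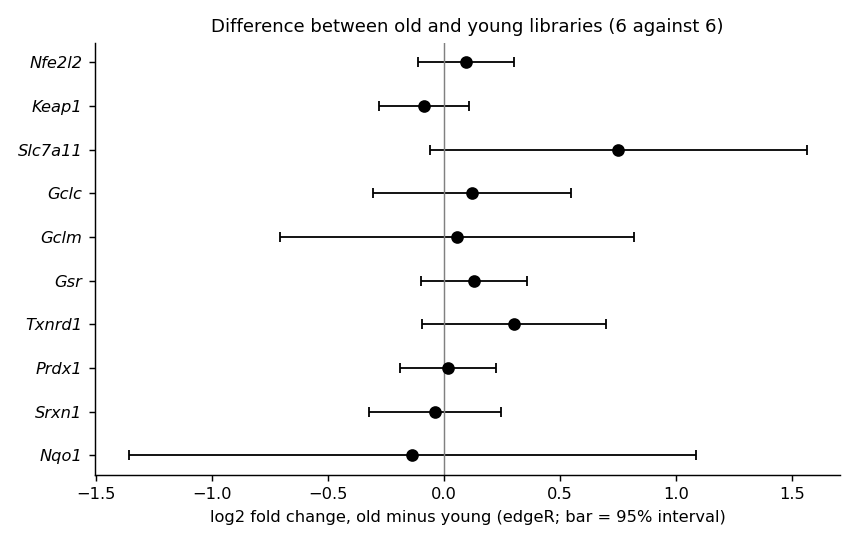
Log2 fold change, old minus young (x axis, edgeR), of each gene; points are estimates from 6 against 6 libraries and bars are 95% intervals. Every interval includes 0, the narrowest belong to Nfe2l2, Keap1 and Prdx1, and those of Nqo1, Slc7a11 and Gclm are the widest.

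The rest of the pathway was described with 7 lists of 71 further tested genes. None passed the adjusted threshold in edgeR's test, and 2 (2.82%) were below an unadjusted p of 0.05, against 5.47% of all genes. Their median log2 fold change was -0.06, with 20 positive and 51 negative values that ranged from -1.32 to 0.36. Those 2 genes were Gstp1 and Chac1, both of the glutathione list. The count of the 71 genes at an unadjusted p below 0.05 moved with the libraries used. It was 0 without young replicate 6 (against 5.8% of all genes) and 13 without old replicate 2 (against 12.7%). Without any other single library it was 0 to 4. With young replicate 6, old replicate 2 and old replicate 3 all left out it was 22 (against 18.1%).

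Among regulators of NRF2 other than the pair above, 0 of 8 passed the adjusted threshold. Sqstm1, the autophagy receptor p62 that can sequester KEAP1, averaged 831 ± 39.1 CPM (young) and 817 ± 71.2 CPM (old), and Rbx1, a subunit of the ligase that ubiquitinates NRF2, was at 82.3 ± 11.3 and 74.2 ± 7.81 CPM (SD, n = 6 each). In the glutathione list 0 of 21 passed. Gstm1, a glutathione transferase with near-identical family members, was at 426 ± 50.6 and 421 ± 31.0 CPM, and Gstp1, another transferase with a close copy, was at 8.64 ± 1.70 and 10.8 ± 1.40 CPM (SD, n = 6 each; edgeR adjusted p = 0.77). Reads of such genes can match several copies, so the levels of these genes are uncertain. Chac1, which degrades glutathione and is not part of the naming rule but was chosen after its values were seen, was at 2.41 ± 2.23 and 0.964 ± 0.430 CPM (SD, n = 6 each), with a log2 fold change of -1.32 (SE 0.57, edgeR adjusted p = 0.77).

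In the thioredoxin list 0 of 13 passed. Txnip, which binds and inhibits thioredoxin, averaged 314 ± 109 CPM (young) and 405 ± 81.0 CPM (old), and Txn2, the mitochondrial thioredoxin, at 125 ± 14.1 and 113 ± 5.75 CPM (SD, n = 6 each). In the list for quinones, heme and iron 0 of 14 passed. The ferritin heavy chain Fth1, which stores iron in a safe form, was at 19394 ± 1502 and 19034 ± 786 CPM, and the biliverdin reductase Blvra at 213 ± 16.1 and 190 ± 24.2 CPM (SD, n = 6 each). The smaller lists were alike in count, with 0 of 6 enzymes of NADPH supply, 0 of 3 superoxide dismutases and catalase, and 0 of 6 subunits of the NADPH oxidase past the threshold. Their named genes were Pgd (562 ± 56.7 and 546 ± 62.1 CPM) and Idh1 (234 ± 51.0 and 269 ± 24.9 CPM), which make NADPH. Catalase (Cat) was at 449 ± 75.8 and 495 ± 39.3 CPM, and the mitochondrial dismutase Sod2 at 64.2 ± 7.09 and 59.6 ± 3.30 CPM. The oxidase subunit Cyba was at 1029 ± 164 and 925 ± 49.3 CPM, and the GTPase Rac2 at 436 ± 33.8 and 392 ± 44.6 CPM (SD, n = 6 each).

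The second comparison was between libraries of one age. Over the 12 libraries the SD of log2 CPM was 1.05 for Nqo1, 0.69 for Slc7a11, 0.61 for Gclm, 0.37 for Txnrd1 and 0.36 for Gclc. It was 0.24 or less for Srxn1, Gsr, Nfe2l2, Prdx1 and Keap1. Within an age group, 6 of the 10 genes had an SD above the median of all genes tested (0.22).

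**Figure D3:**
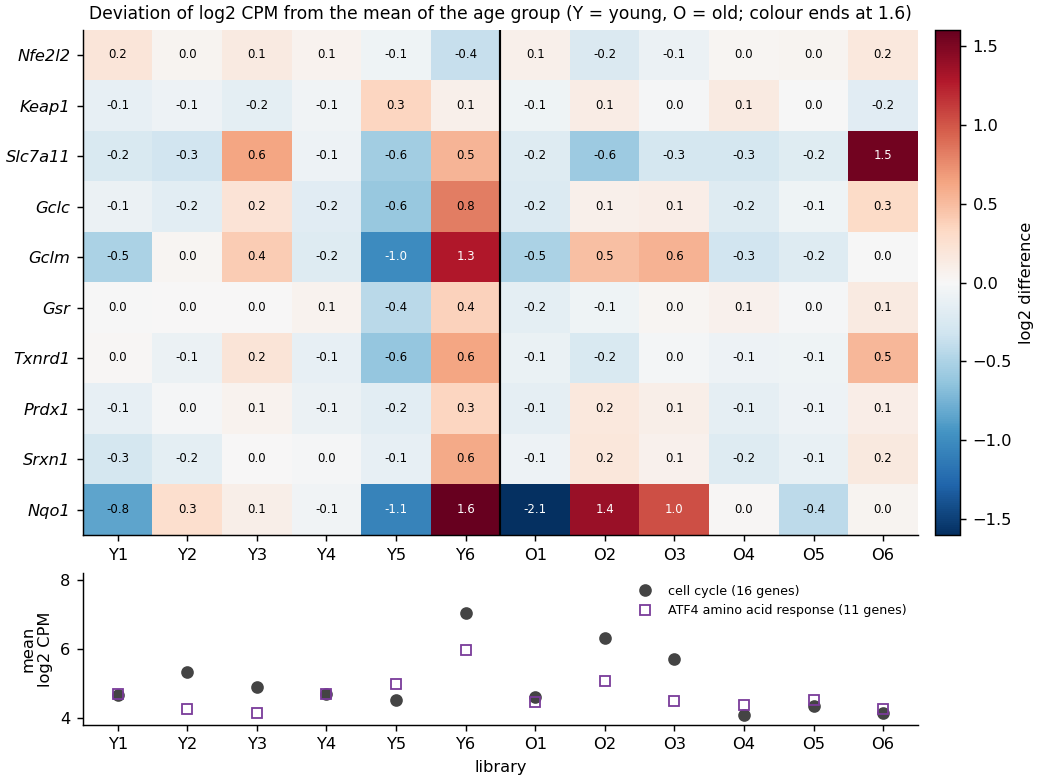
Upper panel: log2 CPM of each gene (rows) in each library (columns, Y young and O old) minus the mean of its age group; red is above and blue below, with colours ending at 1.6 on either side. Lower panel: mean log2 CPM of 16 cell cycle genes and of 11 genes of the ATF4 amino acid response in the same libraries. Y6 is red for all 8 antioxidant genes and blue for Nfe2l2, Y5 is blue for all 8, and O6 is reddest for Slc7a11 and Txnrd1.

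The same few libraries gave most extremes. Young replicate 6 was the highest young library for 7 of the 8 antioxidant genes, all except Slc7a11, and young replicate 5 was the lowest for 7 of 8, all except Srxn1. In the old group the extremes were divided: replicate 6 was highest for Slc7a11, Gclc, Gsr and Txnrd1, replicate 2 for Nqo1, Srxn1 and Prdx1, and replicate 3 for Gclm. Old replicate 1 was lowest for 5 genes, Nqo1, Gclc, Gclm, Gsr and Prdx1. The mean log2 CPM of the 4 glutathione arm genes reached 5.04 (young replicate 6) and 5.06 (old replicate 6), and lay at 3.64 to 4.67 in the 10 other libraries. In old replicate 6 this mean was carried by Slc7a11: over Gclc, Gclm and Gsr alone it was 5.52, below old replicates 3 (5.60) and 2 (5.53), while young replicate 6 remained the highest (6.02). The mean of the 25 glutathione genes tested was 4.91 in old replicate 6, against 4.86 to 5.12 in the 11 other libraries. The mean of the 3 thioredoxin arm genes was 8.26 and 8.11 in those libraries, and 7.43 to 7.89 in the 10 others. Old replicate 6 owed its value mostly to Txnrd1, which lay 0.54 above the old group mean of log2 CPM. Srxn1 and Prdx1 lay 0.15 and 0.11 above it there, less than in old replicate 2 (0.19 and 0.16). Over the 16 thioredoxin genes tested the mean was 6.47 in old replicate 6, within the 6.40 to 6.66 of those 10 libraries. Young replicate 6 was higher on that list too, at 6.73.

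Other features moved with these libraries. The mean log2 CPM of 16 cell cycle genes reached 7.05 (young replicate 6), 6.33 (old replicate 2) and 5.71 (old replicate 3), against 4.08 to 5.34 in the 9 other libraries, and was 4.14 in old replicate 6. The 11 genes of the ATF4 amino acid response, a program that also drives Slc7a11, stood at 5.98 in young replicate 6, against 4.15 to 5.06 in the 11 other libraries. Their mean was 4.25 in old replicate 6, the library highest in Slc7a11. The neutrophil markers, 6 of 10 tested (Ly6g, Camp, Mpo and Elane fell below the filter, none at 0 throughout), had a mean log2 CPM of 0.83 (young replicate 6) and 0.87 (old replicate 6), against 2.02 to 3.45 in the 10 others. The summed neutrophil marker level was 50.6 to 195 CPM in young and 102 to 215 CPM in old libraries; it was 50.6 CPM in young replicate 6, the lowest of all, and 160 CPM in old replicate 6, which lay within the range of the others. Old replicate 6 also held the highest sums of B and T cell, dendritic cell and osteoclast markers, as given above. The mean log2 CPM of macrophage markers was 9.20 in young replicate 6 and 9.47 to 10.2 in the others. The part of these features in the levels of the antioxidant genes was not tested.

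The third question was which of the 10 genes varied together across libraries once the mean of each age group was subtracted from log2 CPM. Of 45 pairs, 15 passed an adjusted permutation p of 0.05 for Pearson's r (100000 resamples, two-sided, adjusted over the 45 pairs). All 15 were positive, and all were among the 28 pairs of the 8 antioxidant genes, of which all 28 had a positive r. By Spearman's rho 9 pairs passed, and 19 pairs passed for Pearson's r when libraries were permuted across all 12 and not within age, of which 14 were among the 15. Without the 2 libraries farthest from the median of the first gene, 13 of the 15 kept an r of at least 0.5, the exceptions being Nqo1 with Gclc (0.45) and Gclc with Gsr (0.42). The values of a library share its scaling factor and the features just described. Such correlations were common in these libraries: of all 79613271 pairs of 12619 genes, 8.42% had an r at least as high as the lowest of the 15 (0.644), as did 19 of the 45 pairs here, and 50% of all pairs were positive.

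**Figure D4:**
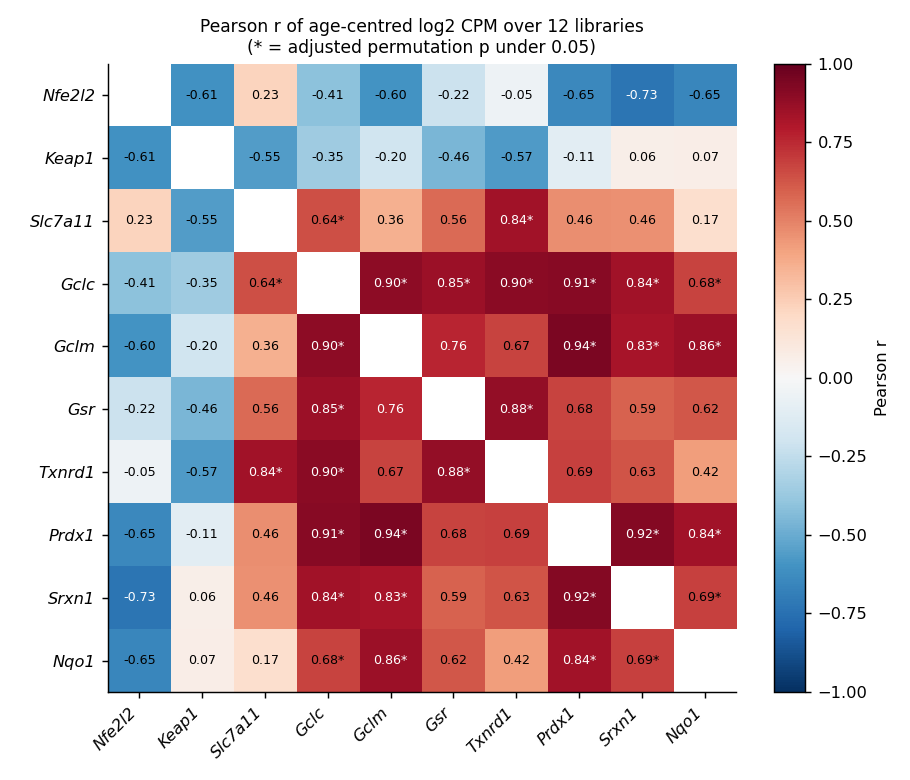
Pearson r between genes over 12 libraries, computed on log2 CPM minus the mean of the age group (red positive, blue negative); an asterisk marks an adjusted permutation p under 0.05. Libraries were permuted within age. Asterisks fall on 15 pairs of antioxidant genes and on none with Nfe2l2 or Keap1, and Nfe2l2 is negative with 7 of the 8.

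The closest pair was Gclm and Prdx1, with r = 0.941 (n = 12, permutation p = 1e-05, the smallest the resamples can give, adjusted p = 0.00045) and rho = 0.916 (permutation p = 0.00016, adjusted p = 0.0031). Without young replicates 5 and 6, the farthest in Gclm, r was 0.906. The r was 0.971 among the 6 young and 0.897 among the 6 old libraries. Nqo1 with Gclm had r = 0.859 (n = 12, permutation p = 6e-05, adjusted p = 0.0013), with 0.963 in young and 0.897 in old libraries. Srxn1 with Prdx1 had r = 0.922 (n = 12, permutation p = 0.00076, adjusted p = 0.0056), with 0.929 in young and 0.946 in old libraries.

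By Pearson's r Gclc passed with all 7 other antioxidant genes, more than any other of the 10, while Txnrd1 passed with 3 (Gclc, Gsr and Slc7a11). By Spearman's rho Gclc passed only with Gclm, Txnrd1 and Prdx1, and Gclm passed with Nqo1, Gclc, Srxn1 and Prdx1. Gclc with Txnrd1 had r = 0.903 (n = 12, permutation p = 0.00072, adjusted p = 0.0056), with 0.983 in young and 0.687 in old libraries. Txnrd1 with Slc7a11 had r = 0.843 (n = 12, permutation p = 0.00087, adjusted p = 0.0056). Its rho was 0.720 (permutation p = 0.016, adjusted p = 0.061), and r was 0.804 without young replicate 6 and old replicate 6. Slc7a11 did not pass with Nqo1 (r = 0.167, n = 12, permutation p = 0.62, adjusted p = 0.68) or Gclm (r = 0.355, n = 12, permutation p = 0.22, adjusted p = 0.29). Gclc and Gclm, subunits of one enzyme, had r = 0.898 (n = 12, permutation p = 0.0014, adjusted p = 0.0076), which was 0.963 in young and 0.640 in old libraries.

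**Figure D5:**
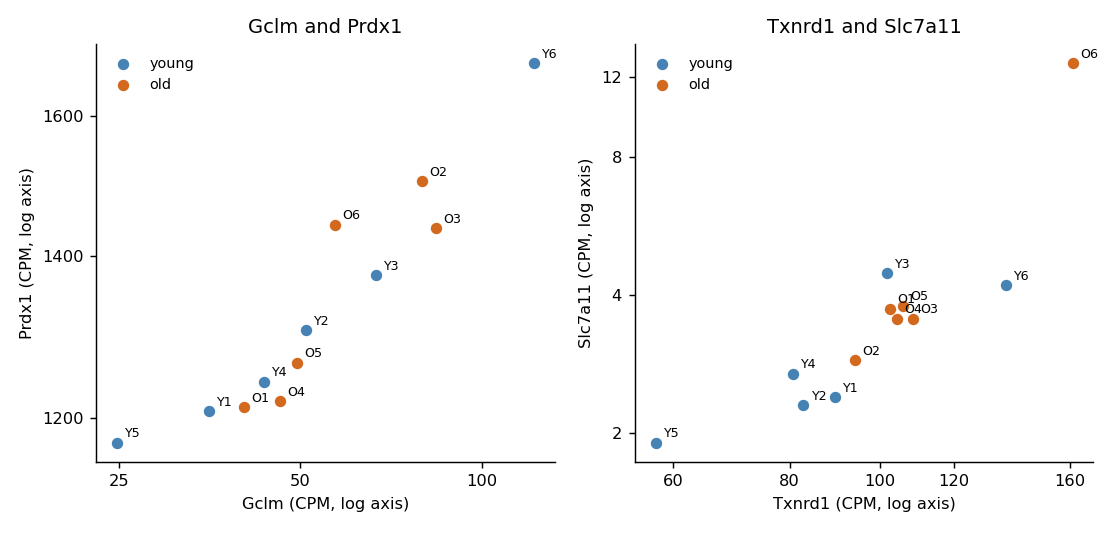
Left, Prdx1 against Gclm, and right, Slc7a11 against Txnrd1, in CPM on log axes; each point is a library, blue young (Y) and orange old (O), labelled by replicate number. On the left the points run from Y5 to Y6 with O2 and O3 near the top, and on the right O6 lies highest on both axes with Y6 well below it on Slc7a11.

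Pairs with Nfe2l2 mRNA looked different. It had a negative r with 7 of the 8 antioxidant genes, and none passed in the test within age. These signs rest on few libraries: without young replicate 6 and old replicate 2, the libraries farthest from the median of Nfe2l2, r was positive with 7 of the 8, and only that with Nqo1 stayed negative (-0.216). The largest was with Srxn1 (r = -0.734, n = 12, permutation p = 0.033, adjusted p = 0.075), which passed when libraries were permuted across all 12 (adjusted permutation p = 0.031), and whose r was 0.00337 without those 2 libraries. For Nfe2l2 with Nqo1 r was -0.652 (n = 12, permutation p = 0.024, adjusted p = 0.061). Nfe2l2 and Keap1 had r = -0.607 (n = 12, permutation p = 0.074, adjusted p = 0.12), while their rho of -0.825 passed (permutation p = 0.0024, adjusted p = 0.022).

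The pairs were computed again over the 9 libraries that remain when young replicate 6, old replicate 2 and old replicate 3 (highest in cell cycle genes) are left out, a choice made after seeing the data. There 17 of 45 pairs passed, of which 7 were among the 15 above. Gclm with Prdx1 was at 0.827 (n = 9, permutation p = 0.00095, adjusted p = 0.019) and Gclc with Txnrd1 at 0.975 (n = 9, permutation p = 0.00027, adjusted p = 0.012). Srxn1 with Prdx1 was at 0.756 and no longer passed (n = 9, permutation p = 0.046, adjusted p = 0.092), nor did Nqo1 with Prdx1 (r = 0.640, n = 9, permutation p = 0.11, adjusted p = 0.16). Over the 9 libraries the r of Nfe2l2 was positive with all 8 antioxidant genes, from 0.151 (Nqo1) to 0.878 (Txnrd1), and that with Txnrd1 passed (n = 9, permutation p = 0.0088, adjusted p = 0.033). The 9 libraries also lack young replicate 6 and old replicate 2, the libraries farthest from the median of Nfe2l2, so they give no separate check of these signs. Keap1 was negative with all 8 and passed with Gclc (r = -0.868, n = 9, permutation p = 0.005, adjusted p = 0.033) and Txnrd1 (r = -0.873, n = 9, permutation p = 0.0034, adjusted p = 0.033). Over all 12 libraries Keap1 was negative with 6 of the 8 and positive with 2, and none passed. With only young replicate 5 and old replicate 4 left out, the libraries farthest from the median of Keap1, its r was positive with 6 of the 8. The 9 libraries keep both of these, so the signs of Keap1 also rest on few libraries. With Keap1, Nfe2l2 was at -0.879 (n = 9, permutation p = 0.0013, adjusted p = 0.019).

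The genes most like Nfe2l2 across the 12 libraries, by Pearson's r of log2 CPM among the 9424 genes with a mean of at least 5 CPM, were Rnf2 (r = 0.992), Zfx (r = 0.991) and Snx27 (r = 0.982). Rnf2, a subunit of Polycomb repressive complex, ranged from 20.5 to 42.6 CPM, and Zfx, a zinc finger transcription factor, from 19.3 to 33.7 CPM. For Nqo1, the gene of the largest spread, they were Alox5 (r = 0.943), the lipoxygenase that begins leukotriene synthesis, F11r (r = 0.941), a junctional adhesion molecule, and Klf4 (r = 0.938), a zinc finger transcription factor. Alox5 ranged from 0.934 to 27.6 CPM. These were picked as the highest of 9424 genes, so they are a description with no test.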

How the data were processed

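Whole, unnormalised counts per gene were deposited by the authors for 12 libraries, and per the file headers they were made with featureCounts 1.6.0 on GRCm38 genes of Ensembl release 100. No strand, pair or multiple-alignment option was set there, so 1 fragment may give a count for each mate. The submitters' processing notes name STAR, FastQC and mm10. The TruSeq RNA v2 kit of the labels' protocols does not keep strand. Symbols came from a reference table (260 IDs had none). A share of 99.9% of counts lay in the 12620 genes kept by edgeR's low-count filter.

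Age groups were compared with edgeR 4.0.16 in R 4.3.3 (quasi-likelihood F test, robust, TMM factors, no covariate), with Benjamini-Hochberg adjustment over all genes tested and a threshold of 0.05. Genes varied by 21.7% between libraries of a group (common biological coefficient of variation). The test was also run on simulated counts, drawn independently for each gene and library. Shifts shared by many genes within a library were not simulated, so that run does not cover them. Log2 CPM used a prior count of 2. Permutations were run in Python 3.11.15 with SciPy 1.17.1 within age groups; permuting across all 12 libraries, which the planned wording also allowed, was added after seeing the data. Alternatives were other scalings and filters, fitting without robust estimation, DESeq2 1.42.0, limma 3.58.1 voom, a replicate block, and libraries left out. The exon length of the table divided CPM for levels per kb.

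The genes, lists and tests were chosen with earlier results of these data known. Named were the 10 genes, the most abundant member of each list and its member of lowest p at 5 CPM or more, and the 3 genes most like Nfe2l2 and like the gene of largest SD. Single-cell samples of liver macrophages were not analysed here.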

Additional observations from a re-analysis of the deposited data

Results flagged for a closer look

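In 4 of the 20 sets of 6 libraries looked at (10 genes in each age group), 1 library stood far from the other 5 by Dixon's criterion, which sets the gap to the nearest library against the range of the group. Chance alone gives such a result in about 1 in 20 sets, which is 1 here, and the genes are not independent. Nqo1 was at 12.1 CPM in young replicate 6, where the next library was at 4.77 CPM. Srxn1 was at 126 CPM in young replicate 6, where the next was at 83.1 CPM. Txnrd1 was at 161 CPM in old replicate 6, where the next was at 108 CPM. Slc7a11 was at 12.8 CPM in old replicate 6, where the next was at 3.79 CPM. Thus the 4 values came from 2 libraries, and from a different gene pair in each.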

How the results depend on the processing

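None of the 10 genes and none of the 71 further pathway genes passed the adjusted threshold under any of the 22 alternatives, and the lowest adjusted p of one of the 10 was 0.20 (Txnrd1, with the 3 libraries of highest cell cycle level left out, log2 fold change 0.52). The count over all genes, 2 in the main test, was 4 with no low-count filter, 12 with DESeq2, and 1 to 5 with a library left out. Of 218 log2 fold changes of the 10 genes under alternatives, 202 kept their direction and 16, of 4 genes, turned: leaving out a library gave -0.10 to 0.43 for Gclm, -0.47 to 0.39 for Nqo1, -0.016 to 0.097 for Prdx1 and -0.094 to 0.11 for Srxn1, and leaving out the 3 libraries gave 0.044 for Srxn1. With a library left out, Gclc ranged from 0.017 to 0.33, Gsr from 0.054 to 0.21, Nfe2l2 from 0.031 to 0.14 and Keap1 from -0.12 to -0.0076. At an unadjusted p below 0.05, 2 of the 10 (Txnrd1 and Slc7a11) were found with the 3 libraries left out, against 18.1% of all genes, and 1 (Slc7a11) with DESeq2, against 3.57%. The count of pairs was 13 to 20 with a library left out, 21 with library size alone and 19 with permutation across all 12 libraries, against 15; by that permutation Nfe2l2 with Srxn1 passed and Gclc with Slc7a11 did not. Nqo1 and Slc7a11 fell below the filter of 5 CPM in 6 libraries, and their low counts limit precision.

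With the replicate number as a block, 4 genes passed, none of them among the 10, and 2 of the 10 (Txnrd1 and Slc7a11) had an unadjusted p below 0.05, against 4.62% of all genes. Same-numbered young and old libraries correlated at -0.17 to 0.39, and 2 of 6 young libraries correlated best with their own number, so the numbers were not taken as pairs.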

Other observations

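Genes beside the antioxidant pathway differed between the same libraries. Txnip, the thioredoxin inhibitor, had its lowest level in young replicate 6 (130 CPM), against 259 to 488 CPM in the 11 other libraries, the reverse of Txnrd1 and Prdx1 in that library. Of the ATF4 amino acid response list, 0 of 11 genes passed the adjusted threshold of edgeR's test between age groups, all 11 values were negative, and the median log2 fold change was -0.42. Most of this difference was gone without young replicate 6: the mean log2 CPM of the list was 4.80 in young and 4.52 in old libraries, and 4.56 in young libraries without that replicate. Trib3, a pseudokinase of that response, averaged 6.08 ± 4.76 CPM (young) and 3.95 ± 1.07 CPM (old), and Slc3a2, the heavy chain that pairs with xCT, at 335 ± 65.0 and 332 ± 53.7 CPM (SD, n = 6 each). Of the cell cycle list, 0 of 16 passed, all 16 values were negative, and the median was -0.31. The mean log2 CPM of the cell cycle list was 5.19 in young and 4.87 in old libraries, and 4.82 in young libraries without young replicate 6. The old mean still held old replicate 2 (6.33) and old replicate 3 (5.71), the next highest libraries. Leaving out young replicate 6 alone therefore does not show whether that library set the direction. The most abundant member of this list, Top2a, which untangles replicated DNA, averaged 155 ± 158 CPM (young) and 125 ± 114 CPM (old) (SD, n = 6 each). All 6 neutrophil markers tested had positive values, with a median of 0.44, and none passed the threshold. Their mean log2 CPM was 2.16 in young and 2.51 in old libraries, and 2.42 in young libraries without replicate 6. The old mean still held old replicate 6, at 0.87 nearly as low as young replicate 6 (0.83), while the other old libraries lay at 2.24 to 3.45. Leaving out young replicate 6 alone thus treats the age groups unequally.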
